A study of Mus musculus with 8 samples.

Results

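The potassium channel genes described here were the protein-coding genes whose GENCODE symbol starts with Kcn, 94 of the 22430 genes in the deposited count table. They comprised 77 genes for pore-forming or silent pore subunits and 17 for auxiliary or regulatory proteins. RNA was taken from the brains of 8 male C57Bl/6JRj mice, 4 aged 6 months (6m, young adult) and 4 aged 24 months (24m, old), and was sequenced as polyadenylated RNA on an Illumina instrument. The labels give no transgene and no treatment for either group, and age is the only difference they give. The labels call the tissue whole brain in one field and hemisphere in another, and each library was made from 1 animal.

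Potassium channels let potassium ions leave or enter cells and so set the resting potential, shape the action potential and limit repetitive firing. Voltage-gated (Kv) channels open on depolarisation, calcium-activated channels open when intracellular calcium rises, inward rectifiers (Kir) hold the membrane near the potassium equilibrium potential, and two-pore domain (K2P) channels carry background leak. Astrocytes use Kir channels to take up the potassium that active neurons release. Auxiliary subunits such as the Kcnab, Kcnip, Kcne and Kcnmb proteins bind the pore subunits and modify their gating and trafficking.

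All potassium-selective pores share a short selectivity filter. In the canonical coding sequences, a run of 5 codons was searched in frame on the coding strand: a codon of threonine or serine, then of valine, isoleucine or leucine, then of glycine, then of tyrosine, phenylalanine or leucine, and then of glycine. It was found in each of the 77 pore-forming or silent subunits and in 0 of the 17 auxiliary or regulatory members, against 0.987% of the coding sequences of other genes. The 11 members with 2 matches were all K2P genes, whose subunits carry a pair of pore domains, and 3 further K2P genes had 1 match. Kcnk2 had 1 match and Kcnk9 had 2, so the matches printed for them need not come from the same pore domain. At the DNA level the filter differed between members, with 65 different runs of 15 bases among those compared, of which 6 occurred in more than 1 member. The first match and its flanks are printed for 10 pore subunits whose values carry the comparison between ages, 30 bases each from GRCm39, 5′ to 3′ on the coding strand, with the filter codons in capitals.
Kcna1: atgaccACTGTGGGATACGGTgacatgtac
Kcna2: atgacaACTGTAGGCTATGGAgacatggtt
Kcna6: atgaccACGGTAGGTTATGGGgacatgtac
Kcnd3: atgactACACTGGGATATGGAgacatggtg
Kcnh1: ctcaccAGTGTGGGCTTTGGTaacattgcc
Kcnma1: atgtctACAGTGGGTTATGGGgacgtttat
Kcnu1: atgtcaACTGTTGGCTTTGGGgacgtggtg
Kcnj10: cagaccACCATCGGCTATGGCttccgctac
Kcnk2: ctgacgACCATTGGATTTGGAgactacgtg
Kcnk9: atcacaACTATCGGATATGGAcatgctgca
These stretches were coding exon sequence at chr6:126619182-126619211, - strand (Kcna1), chr3:107012534-107012563, + strand (Kcna2), chr6:126715601-126715630, - strand (Kcna6), chr1:192020056-192020085, + strand (Kcnh1), chr14:23578472-23578501, - strand (Kcnma1), chr8:26371412-26371441, + strand (Kcnu1), chr1:172196863-172196892, + strand (Kcnj10) and chr1:188988769-188988798, - strand (Kcnk2). In Kcnd3 and Kcnk9 the printed stretch was joined across an intron, as in 14 members, all 3 Kcnd genes and 11 Kcnk genes. Sequence shared between members was short: 18 members had at least 1 run of 50 bases in their canonical transcript that also occurred in another member, and the largest share was 2.81% of such runs, in Kcna5, which shares 79 of them with Kcna6.

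Library totals were 63460940 to 103462414 counts, the largest in 24m replicate 1. By Spearman correlation over all genes, 24m replicate 1 stood between the ages (0.969 to 0.985 with the other 24m libraries and 0.975 to 0.982 with the 6m libraries), and 24m replicate 4 was the farthest from the 6m libraries (0.924 to 0.946). The level of a gene is given in counts per 1000000 (CPM) after TMM scaling, and levels of different genes are compared only as CPM per kb of exonic length. A gene counts as called where the edgeR quasi-likelihood test gave a Benjamini-Hochberg adjusted p no higher than 0.05 and the log2 fold change (24m over 6m) was 0.58 or more in size. Markers of neurons, astrocytes, oligodendrocytes and microglia were counted in every library. The p-values measure the spread between these 8 animals. In bulk tissue, fewer cells of a type and less RNA per cell cannot be told apart.

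Many more potassium channel genes rose than fell with age. Of the 94 members, 86 passed the filter on low counts and were tested; 36 were called higher at 24m (41.9% of those tested, against 25.3% of all tested genes) and 6 were called lower (6.98%, against 18.3% of all tested genes). The other 44 were not called, of which 8 passed the adjusted p alone. By adjusted p without the fold, 50 of the 86 passed, against 62.6% of all tested genes. The median log2 fold change was 0.34 over the tested members, against -0.0034 over all 16730 tested genes, with values from -1.24 to 3.33. All 4 libraries of 24m lay above all 4 of 6m for 30 members (28.4% of all tested genes did so) and below them for 9 (26.8% of all tested genes), and the ages overlapped for 47. The 39 members without overlap were 45.3% of those tested, against 55.2% of all tested genes. Scaling by library totals alone moved the median of all genes to 0.21 and gave 40 members higher and 1 lower, with a member median of 0.56. Under that scaling 32.6% of all tested genes were called higher and 10.4% lower.

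Among pore-forming and silent subunits, 33 of 71 tested genes rose and 3 fell (46.5% and 4.23%, against 25.3% and 18.3% of all tested genes), with a median log2 fold change of 0.49. Among auxiliary and regulatory genes, 3 of 15 tested rose and 3 fell (20.0% each), with a median of 0.03; the difference between these categories was not tested. Summed over all members, the level was 391 to 425 CPM per kb in the 6m libraries and 472 to 529 CPM per kb in the 24m libraries, so the sums did not overlap between ages. The 8 members that were not tested (Kcna7, Kcne1, Kcnj1, Kcnj15, Kcnk16, Kcnk18, Kcnmb3 and Kcnv2) had at most 11 counts in any library.

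**Figure D1:**
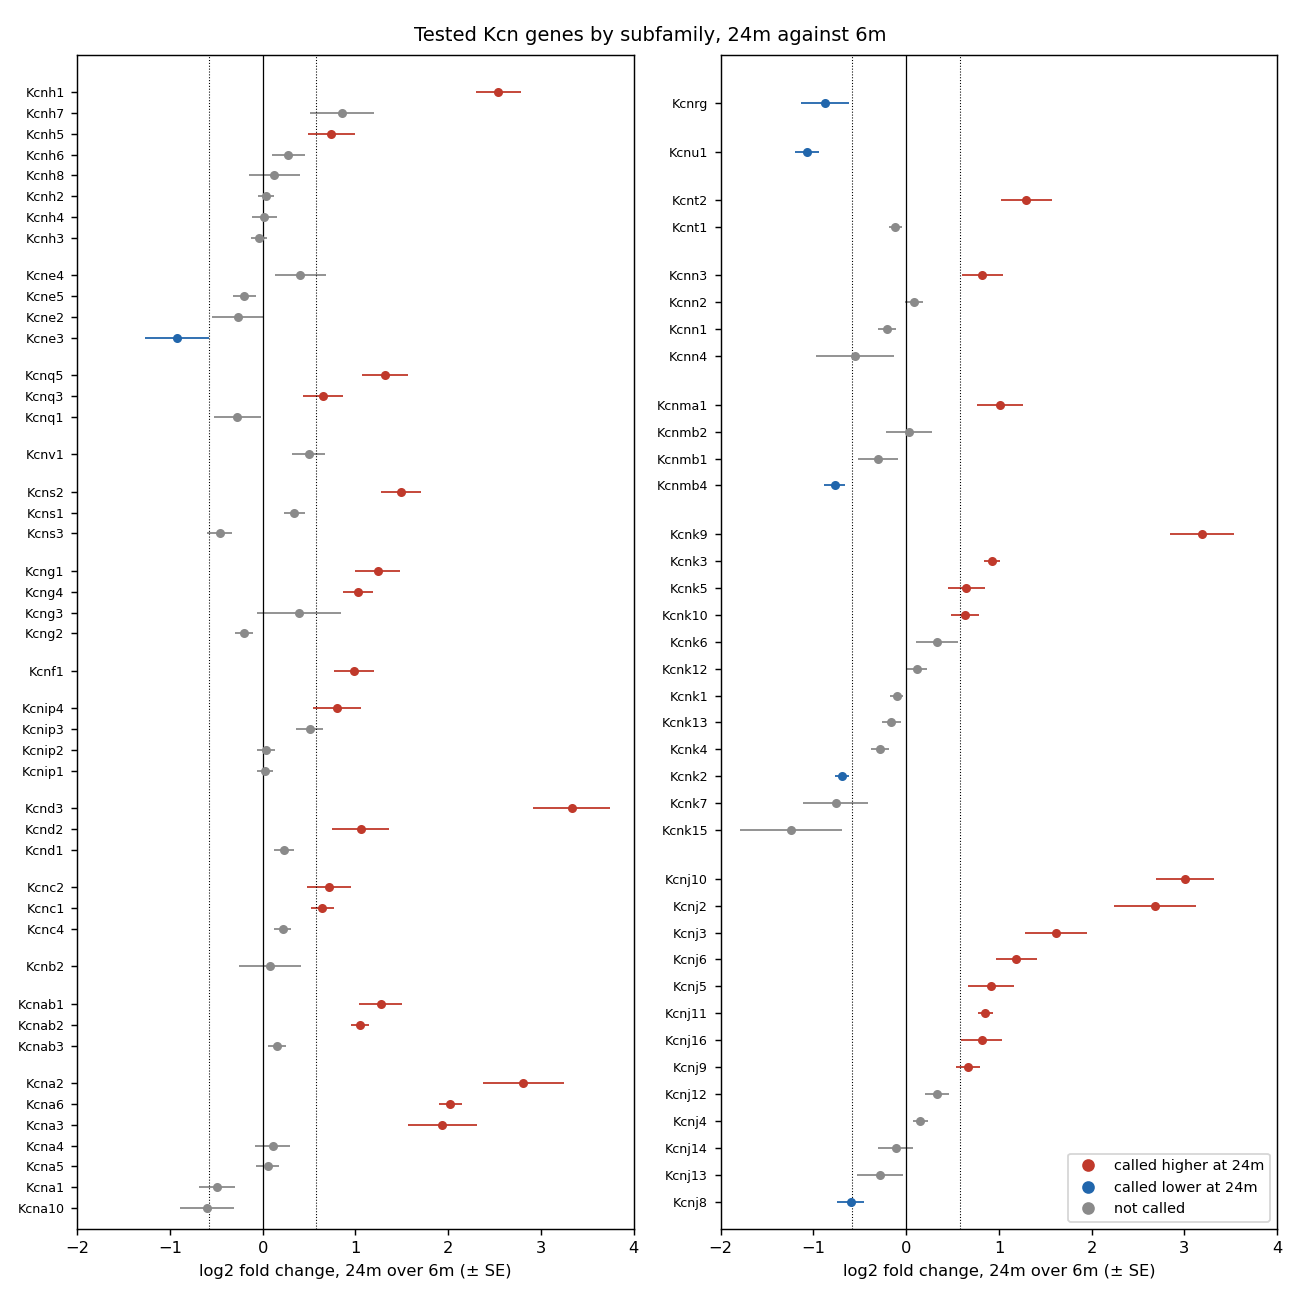
Log2 fold change (24m over 6m, ± SE, edgeR) of 82 of the 86 tested Kcn genes, arranged by subfamily; dotted lines mark ±0.58. Red points (33) were called higher at 24m, blue points (6) lower and grey points (43) were not called.

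For 32 of the 36 genes called higher, 24m replicate 1 was the lowest of the 4 aged libraries, and for 28 of them 24m replicate 4 was the highest. The 6 genes called lower had no such common order. The order seen in the rises was not counted over all genes called higher, so it is not shown to be particular to potassium channel genes. By Spearman correlation over all genes, 24m replicate 1 was likewise the aged library nearest to the 6m libraries and 24m replicate 4 the farthest. Without 24m replicate 1, 39 members were called higher and 7 lower, and 35 of the 36 and 5 of the 6 kept their call. In that fit 28.2% of all tested genes were called higher and 21.6% lower, against 25.3% and 18.3% with all libraries. The calls gained in that fit were rises of Kcng3 (0.74, adjusted p = 0.0366), Kcnh7 (1.14, adjusted p = 0.000351), Kcnip3 (0.65, adjusted p = 8.26e-05) and Kcnv1 (0.66, adjusted p = 0.000818) and falls of Kcnk7 (-1.05, adjusted p = 0.0166) and Kcnn4 (-1.18, adjusted p = 0.00147). Without 24m replicate 4, 29 were called higher and 7 lower (23.0% and 15.7% of all tested genes were). The 7 lost calls of a rise included those of Kcnc1, Kcnc2, Kcnh5, Kcnip4, Kcnk10 and Kcnq3.

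Kv1 channels (Kcna genes) are low-threshold channels of axons and nerve terminals. Of the 7 tested Kcna genes, 3 rose (42.9%, against 25.3% of all tested genes) and 4 were not called, with a median log2 fold change of 0.11. Kcna2 (ENSMUSG00000040724, chr3:107008237-107022321, + strand), the Kv1.2 subunit of juxtaparanodal axon membrane, was at 1.69, 2.04, 1.99 and 1.23 CPM in 6m replicates 1 to 4 and at 3.97, 11.7, 11.8 and 21.3 CPM in 24m replicates 1 to 4. The aged libraries were all higher, 24m replicate 1 being nearest to the young range and 24m replicate 4 the farthest. Its log2 fold change was 2.81 ± 0.44 (SE, adjusted p = 0.000533), and 3.12 without 24m replicate 1. Kcna2 is among 5 members that the study chose from these samples (with Kcnd3, Kcnj2, Kcnj10 and Kcnk9), so its direction is not independent evidence.

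Kcna6 (ENSMUSG00000038077, chr6:126685292-126717644, - strand), the Kv1.6 subunit, was at 11.4, 11.5, 11.6 and 13.2 CPM at 6m and 38.7, 48.8, 51.8 and 54.7 CPM at 24m. Every aged library was above the highest young library, and the spread within each age was small against the difference. On the log2 scale the difference was 2.02 ± 0.12 (adjusted p = 1.36e-05). Kcna3, the Kv1.3 subunit also known from microglia and lymphocytes, rose from 0.454 ± 0.125 to 1.75 ± 0.725 CPM (mean ± SD, n = 4), or 1.94 ± 0.37 on the log2 scale (adjusted p = 0.00165). Kcna3 and Kcna2 lie beside each other on chromosome 3, and both overlap an antisense gene model (Gm27008).

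Kcna1 (ENSMUSG00000047976, chr6:126617360-126623347, - strand), the Kv1.1 subunit that assembles with Kv1.2 in axons, was at 37.2, 25.6, 30.3 and 37.8 CPM at 6m and 16.8, 21.7, 23.3 and 31.2 CPM at 24m. The ages overlapped, since 24m replicate 4 was above 2 of the 6m libraries. Its log2 fold change was -0.49 ± 0.19 (adjusted p = 0.0452), which is short of the fold threshold. Kcna4 (0.11), Kcna5 (0.05) and Kcna10 (-0.60) were not called. Kcna1 was called lower without 24m replicate 4 (-0.67, adjusted p = 0.00735) or without 6m replicate 2 (-0.59, adjusted p = 0.0269), and Kcna10 without 6m replicate 4 (-0.80, adjusted p = 0.0193).

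The order of the Kv1 subunits differed between ages. Per kb of exonic length, Kcna1 was at 6.85 ± 1.22 CPM per kb at 6m, the highest of the subfamily, followed by Kcna5 at 4.14 ± 0.213 and Kcna6 at 2.00 ± 0.144. At 24m Kcna6 was the highest at 8.15 ± 1.16 CPM per kb, followed by Kcna1 at 4.87 ± 1.25 and Kcna5 at 4.29 ± 0.672, the latter pair overlapping within their spread. As a share of the summed Kcna level per kb, Kcna1 was 45.2 ± 5.16% in the young and 23.1 ± 1.67% in the aged libraries, and Kcna6 was 13.3 ± 0.757% and 39.3 ± 2.46% (mean ± SD, n = 4). Neither share overlapped between ages. Kcna2 stayed a small part of the subfamily at 4.07 ± 1.77% of the summed level at 24m (0.866 ± 0.237% at 6m), in spite of its larger fold change. The shares rest on the exonic length of each gene, which joins all annotated exons.

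The cytoplasmic beta subunits of Kv1 channels are encoded by the Kcnab genes, of which 2 of 3 rose (66.7%, against 25.3% of all tested genes). Kcnab2, the highest of the subfamily per kb at 20.8 ± 1.71 CPM per kb at 6m, was at 182, 218, 203 and 218 CPM in the young and 476, 403, 429 and 395 CPM in the aged libraries. In this gene 24m replicate 1 was the highest aged library, unlike in most members that rose. This was a log2 fold change of 1.05 ± 0.09 (adjusted p = 4.34e-05), and 0.69 (adjusted p = 0.00134) once the trend over gene length was removed. Kcnab1 rose by 1.27 ± 0.23 (adjusted p = 0.00113), and Kcnab3 was not called (0.16 ± 0.10, adjusted p = 0.198).

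**Figure D2:**
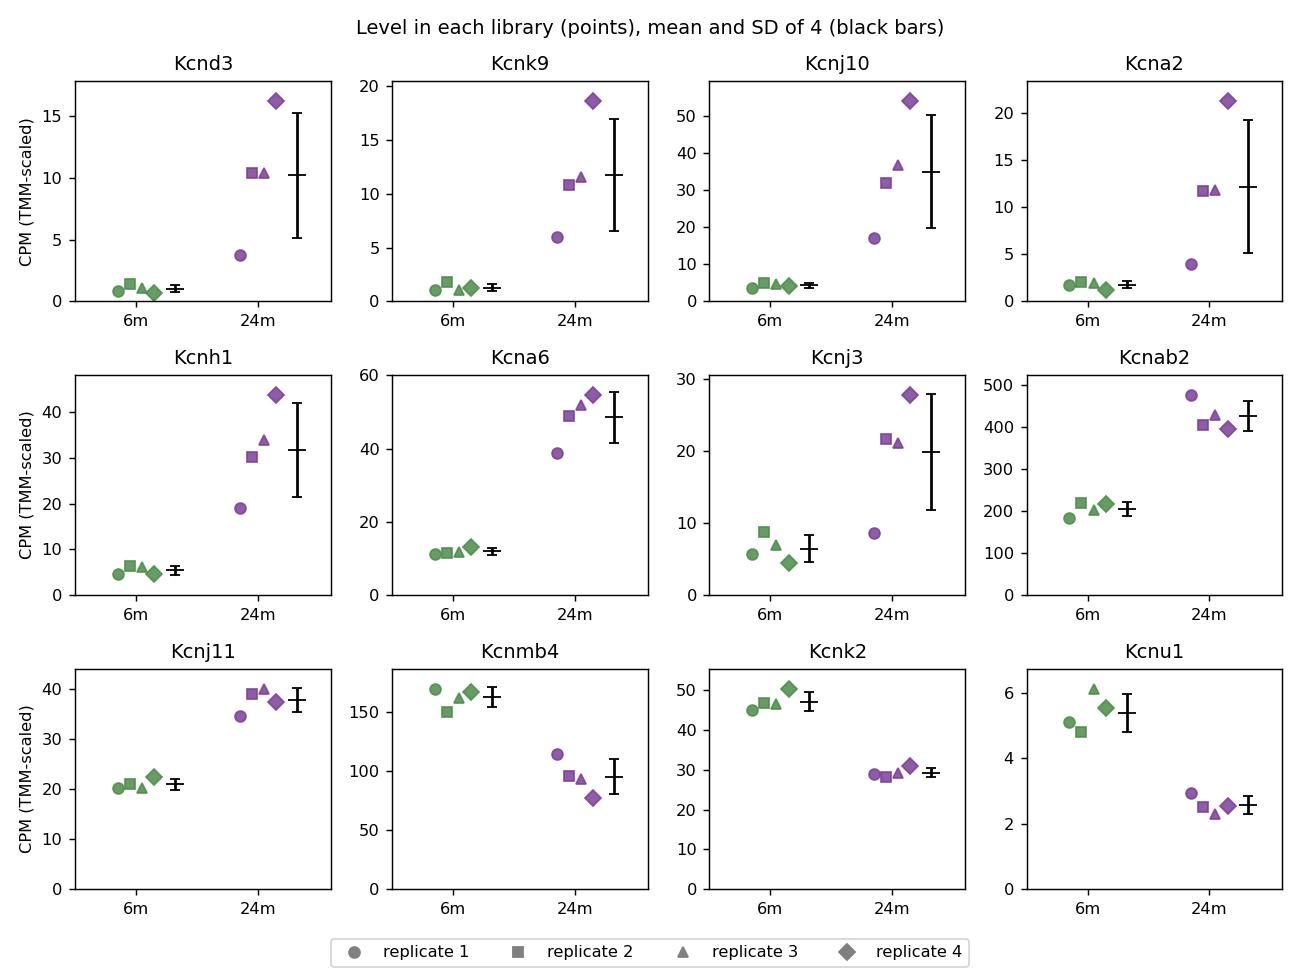
TMM-scaled CPM of 12 potassium channel genes in each of the 8 libraries; symbols mark replicates 1 to 4 of each age, and the black bar gives the mean and SD of the 4. In Kcnd3, Kcnk9, Kcnj10, Kcna2, Kcnh1, Kcna6 and Kcnj3 the circle for 24m replicate 1 is the lowest and the diamond for 24m replicate 4 the highest of the aged libraries, whereas Kcnmb4, Kcnk2 and Kcnu1 are lower in every aged library.

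Kv4 channels (Kcnd genes) carry the somatodendritic A-type current. Kcnd3 (ENSMUSG00000040896, chr3:105359284-105581318, + strand), the Kv4.3 subunit, had the largest log2 fold change of all members. It was at 0.869, 1.37, 1.11 and 0.696 CPM at 6m and 3.79, 10.4, 10.4 and 16.2 CPM at 24m, and even the lowest aged library was above the highest young one. The log2 fold change was 3.33 ± 0.42 (adjusted p = 0.000181), and 3.63 without 24m replicate 1. The gene overlaps the antisense gene Kcnd3os, and the use of strand in counting is not given in the sources used here.

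Kcnd2, the Kv4.2 subunit of hippocampal and cortical dendrites, was at 11.7, 10.5, 10.3 and 9.53 CPM at 6m and 8.98, 22.6, 24.0 and 31.7 CPM at 24m. Replicates 2 to 4 of 24m were clearly higher, whereas 24m replicate 1 was below all young ones. The difference was 1.06 ± 0.31 on the log2 scale (adjusted p = 0.0129), or 1.33 without 24m replicate 1; limma-voom did not call it (adjusted p = 0.0531). Per kb, Kcnd2 remained above Kcnd3 at both ages (1.81 ± 0.152 against 0.102 ± 0.0296 CPM per kb at 6m, 3.77 ± 1.63 against 1.03 ± 0.511 at 24m). Kcnd1 was not called (0.23 ± 0.11, adjusted p = 0.0905).

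The calcium-binding partners of Kv4 are the KChIPs (Kcnip genes). Kcnip2, the highest of them per kb, was at 76.9, 96.4, 96.1 and 95.2 CPM at 6m and 88.8, 94.9, 102.7 and 86.4 CPM at 24m (0.03 ± 0.10 on the log2 scale, adjusted p = 0.793). The ages overlapped, and 6m replicate 1 lay apart below the other young libraries. Kcnip4 rose by 0.80 ± 0.26 (adjusted p = 0.0218), a call that ended under 5 alternatives, while Kcnip3 (0.50, adjusted p = 0.0116) passed the adjusted p without the fold and Kcnip1 (0.03) did not. The dipeptidyl-peptidase-like partners of Kv4, which are no Kcn genes, both rose: Dpp6 by 0.79 ± 0.09 (adjusted p = 0.000128) and Dpp10 by 1.20 ± 0.27 (adjusted p = 0.00338).

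Kv3 channels (Kcnc genes) carry fast delayed rectifier currents in fast-spiking cells. Kcnc1 was at 115, 109, 116 and 127 CPM at 6m and 139, 187, 195 and 207 CPM at 24m, a rise of 0.64 ± 0.12 (adjusted p = 0.00146). Kcnc2 rose by 0.72 ± 0.23 (adjusted p = 0.0226). Both encode subunits of fast-spiking interneurons, and both lost the call without 24m replicate 4 and when the length trend was removed, that of Kcnc2 under 7 alternatives in all. Kcnc4 was not called (0.21 ± 0.09), nor was Kcnb2, a Kv2 delayed rectifier gene (0.07 ± 0.33, adjusted p = 0.857). Removing the length trend turned Kcnb2 to a called fall of -0.63 (adjusted p = 0.0214).

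The electrically silent subunits (Kcnf1, Kcng, Kcns and Kcnv genes) form no channel alone and modify Kv2 channels. Of 9 tested, Kcnf1, Kcng1, Kcng4 and Kcns2 rose (44.4%, against 25.3% of all tested genes) and 0 were called lower (18.3% of all tested genes were). The adjusted p alone was passed by 7 of the 9, against 62.6% of all tested genes, the other 3 being Kcns1, Kcns3 and Kcnv1. Kcnf1 rose from 21.7 ± 3.45 to 42.9 ± 12.3 CPM (0.98 ± 0.22, adjusted p = 0.00324). Kcng4 was at 23.1, 18.4, 16.1 and 23.4 CPM at 6m and 50.7, 42.0, 39.1 and 33.3 CPM at 24m (1.03 ± 0.16, adjusted p = 0.000539), with 24m replicate 1 the highest. Kcns2 was at 2.29, 3.07, 2.72 and 2.74 CPM at 6m and 4.75, 7.54, 8.18 and 9.98 CPM at 24m (1.49 ± 0.21, adjusted p = 0.000363), with 24m replicate 1 the lowest of the aged libraries. In both genes the ages did not overlap.

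Within the silent subunits, Kcns1 was at 21.0 ± 0.988 CPM at 6m and 26.6 ± 3.69 CPM at 24m (0.34 ± 0.11, adjusted p = 0.0195). Kcns3 pointed the other way at 8.79 ± 0.874 and 6.38 ± 0.881 CPM (-0.46 ± 0.13, adjusted p = 0.0125). Both were separated between ages without reaching the fold threshold, and Kcns3 was called lower under 4 alternatives, with log2 fold changes of -0.78 (DESeq2 on quantile-normalized counts), -0.61 (GC trend removed), -0.72 (length trend removed) and -0.72 (the same with the replicate block). Kcnv1 was at 15.4 ± 2.62 and 21.7 ± 4.54 CPM with overlap (0.49 ± 0.18, adjusted p = 0.0342). It was called higher without 24m replicate 1 (0.66), without 6m replicate 3 (0.58) and under library totals alone (0.72). Kcng1 rose by 1.24 ± 0.24 (adjusted p = 0.00184), and Kcng2 (-0.20) and Kcng3 (0.39) were not called. With the length trend removed, Kcng2 was called lower (-0.61, adjusted p = 0.00245).

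Kv7 channels (Kcnq genes) carry the M-current, which restrains repetitive firing and is closed by muscarinic receptors. Kcnq5 was at 8.37, 11.4, 11.5 and 7.66 CPM at 6m and 14.02, 24.8, 25.9 and 32.5 CPM at 24m, without overlap (1.32 ± 0.24, adjusted p = 0.00133). Kcnq3 rose by 0.65 ± 0.21 (adjusted p = 0.024), but the call was lost under 8 alternatives, among them limma-voom, quantile normalization, the omission of any of 3 libraries (replicates 3 and 4 of 24m, replicate 1 of 6m), and removal of the GC trend or of the length trend (0.08 (adjusted p = 0.61)). Kcnq1 was near the floor of the table at 0.423 ± 0.0353 and 0.350 ± 0.108 CPM and was not called.

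The small membrane subunits of the Kcne family, which modify Kv7 and other Kv channels, had 0 rises and 1 fall called among 4 tested genes, against 25.3% and 18.3% of all tested genes, too few genes to read from. Kcne5 was the highest of them per kb, at 7.06 ± 0.833 CPM at 6m and 6.16 ± 0.545 CPM at 24m (-0.20 ± 0.12, adjusted p = 0.194). Kcne2, known from choroid plexus epithelium, was at 1.80, 1.15, 1.46 and 1.91 CPM at 6m and 1.45, 1.92, 0.780 and 1.10 CPM at 24m and was not called (-0.26 ± 0.28, adjusted p = 0.429). Kcne3 was called lower from levels of 0.157 ± 0.0513 and 0.0813 ± 0.0199 CPM (-0.93 ± 0.35, adjusted p = 0.0394), with overlap between ages and a call lost under 12 alternatives, and Kcne4 (0.40) was not called. With the length trend removed, Kcne4 was called higher (0.74, adjusted p = 0.0453) and Kcne5 turned to 0.40 (adjusted p = 0.0131).

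The Kcnh genes (the EAG, ERG and ELK channels) were uneven. Kcnh1 (ENSMUSG00000058248, chr1:191873081-192192467, + strand), the EAG1 subunit, was at 4.71, 6.31, 6.25 and 4.55 CPM at 6m and 19.0, 30.2, 34.0 and 43.8 CPM at 24m. The lowest aged library was several times the highest young one. This was a log2 fold change of 2.54 ± 0.24 (adjusted p = 5.6e-05), and 2.74 without 24m replicate 1. By contrast, Kcnh3, the ELK2 subunit of forebrain neurons and the highest of the subfamily per kb, was at 183, 203, 217 and 192 CPM at 6m and 192, 188, 212 and 181 CPM at 24m, with overlapping ages (-0.04 ± 0.08, adjusted p = 0.692). Kcnh2, the ERG1 channel known from cardiac repolarisation, was likewise at 98.1 ± 10.6 and 101 ± 2.09 CPM (0.04 ± 0.09, adjusted p = 0.744). Kcnh5 rose by 0.74 ± 0.26 (adjusted p = 0.0288), with overlap and a call lost under 6 alternatives. Kcnh4 (0.02), Kcnh6 (0.28), Kcnh7 (0.85) and Kcnh8 (0.13) were not called.

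**Figure D3:**
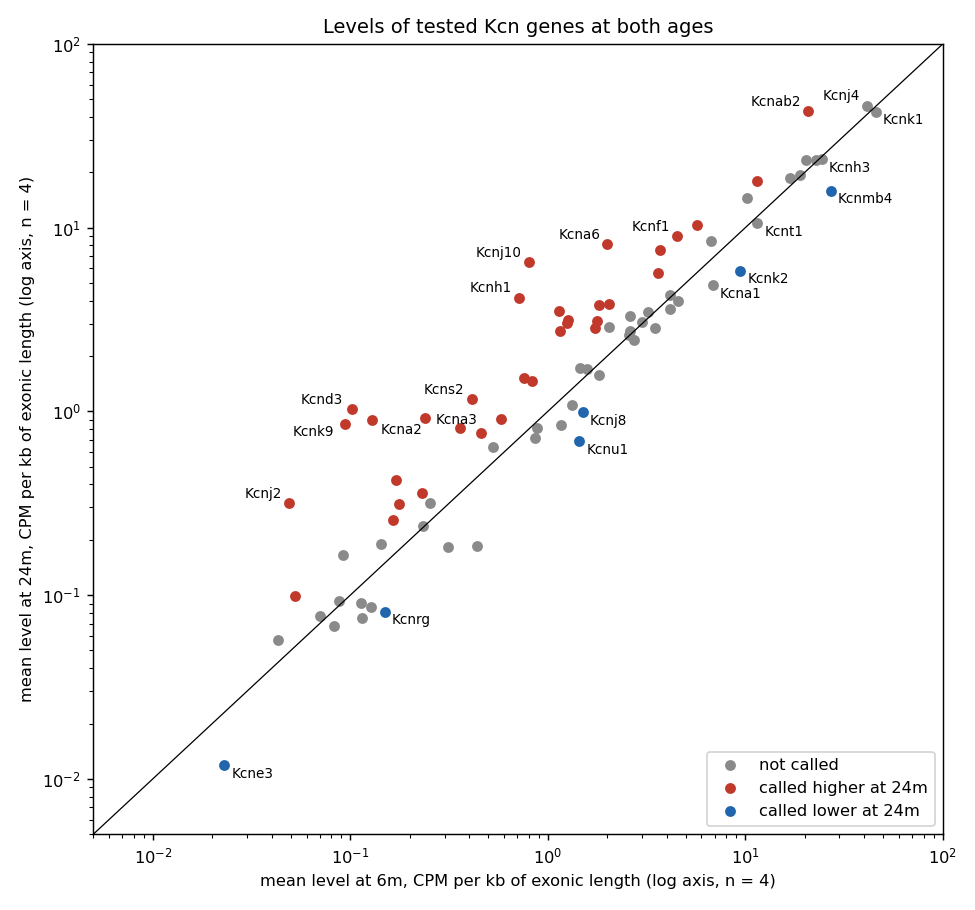
Mean level (CPM per kb of exonic length, n = 4) of 82 of the 86 tested Kcn genes at 6m (x axis, log) and at 24m (y axis, log); the line marks equal levels. Of the 5 largest rises, Kcnd3, Kcnk9, Kcna2 and Kcnj2 start lower than Kcnj10. Of the most abundant members Kcnk1, Kcnj4 and Kcnh3 lie on the line, Kcnab2 above it and Kcnmb4 below it.

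Of the 13 tested genes for inward rectifiers (Kcnj), the subfamily with the most tested genes, 8 rose (61.5%, against 25.3% of all tested genes) and 1 fell (7.69%, against 18.3%), with a median log2 fold change of 0.82. Kcnj10 (ENSMUSG00000044708, chr1:172168765-172201652, + strand), the Kir4.1 channel through which astrocytes buffer potassium, was at 3.58, 5.01, 4.79 and 4.04 CPM at 6m and 17.1, 32.0, 36.8 and 54.1 CPM at 24m. The young libraries lay close together, whereas the aged ones spread over a several-fold range that did not reach the young values. The log2 fold change was 3.01 ± 0.31 (adjusted p = 7.43e-05), and 3.25 without 24m replicate 1. Kcnj16, the Kir5.1 subunit that pairs with Kir4.1, was at 3.87, 5.09, 5.27 and 4.04 CPM at 6m and 5.12, 8.47, 7.56 and 11.03 CPM at 24m. Its ages overlapped through 24m replicate 1, and its log2 fold change was 0.82 ± 0.22 (adjusted p = 0.00949), a call lost under quantile normalization and under removal of the GC trend. Per kb, Kcnj10 went from 0.804 ± 0.122 to 6.46 ± 2.81 CPM per kb and Kcnj16 from 0.833 ± 0.131 to 1.47 ± 0.445, so that similar levels at 6m were several-fold apart at 24m. Of 10 astrocyte marker genes, 7 were called higher and 1 lower (against 25.3% and 18.3% of all tested genes); their summed level was 1756 to 2029 CPM at 6m and 2556 to 2882 CPM at 24m, and their part in the Kcnj10 value was not tested.

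Kcnj2, the strong rectifier Kir2.1, rose from 0.267 ± 0.131 to 1.73 ± 0.689 CPM (2.68 ± 0.44, adjusted p = 0.000695). All aged libraries were higher, although the gene stayed at a low level throughout. Kcnj4, the Kir2.3 channel of forebrain dendrites, was the highest inward rectifier per kb at 41.5 ± 2.20 CPM per kb at 6m and 46.2 ± 3.34 at 24m. It was at 146, 157, 166 and 156 CPM in the young and 182, 163, 186 and 162 CPM in the aged libraries, with overlap (0.15 ± 0.08, adjusted p = 0.122). Kcnj12, the Kir2.2 channel, passed the adjusted p without the fold (0.33 ± 0.13, adjusted p = 0.0463), and Kcnj14, the Kir2.4 channel, was not called (-0.11).

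G protein-gated rectifiers (GIRK channels) are opened by inhibitory neurotransmitter receptors, and their 4 genes are among the 8 Kcnj rises counted above (25.3% of all tested genes rose). Kcnj3, the GIRK1 subunit, was at 5.68, 8.82, 6.92 and 4.42 CPM at 6m and 8.62, 21.7, 21.1 and 27.8 CPM at 24m. Only 24m replicate 1 lay within the young range. On the log2 scale the difference was 1.62 ± 0.33 (adjusted p = 0.00238). Kcnj6 (GIRK2) rose by 1.19 ± 0.22 (adjusted p = 0.00124), Kcnj5 (GIRK4) by 0.91 ± 0.24 (adjusted p = 0.00861) and Kcnj9 (GIRK3) by 0.67 ± 0.13 (adjusted p = 0.00184). The last call did not hold once the length trend was removed (0.28 (adjusted p = 0.0237)).

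The pore subunits of ATP-sensitive channels, which couple metabolism to excitability, moved in opposite directions. Kcnj11, the Kir6.2 subunit of neurons, was at 20.2, 21.0, 20.2 and 22.4 CPM at 6m and 34.6, 39.1, 40.1 and 37.5 CPM at 24m (0.85 ± 0.08, adjusted p = 6.07e-05). Kcnj8 (ENSMUSG00000030247, chr6:142510563-142517830, - strand), the Kir6.1 subunit typical of pericytes and vascular smooth muscle, was at 6.63, 4.96, 4.61 and 6.43 CPM at 6m and 3.74, 3.49, 4.12 and 3.62 CPM at 24m (-0.60 ± 0.15, adjusted p = 0.00587). Neither gene overlapped between ages. The Kcnj8 call sat at the fold threshold and was lost under 8 alternatives, and its log2 fold change ran from -0.93 to -0.37 over all alternatives. Of 8 pericyte and smooth muscle markers, 3 were called higher and 2 lower (37.5% and 25.0%, against 25.3% and 18.3% of all tested genes). Their summed level was 183 to 244 CPM at 6m and 137 to 173 CPM at 24m, most of it Vtn (vitronectin). The part of these markers in the Kcnj8 value was not tested. The sulfonylurea receptors that complete these channels also differed from each other, with Abcc8 at -0.23 ± 0.08 (adjusted p = 0.0313), short of the fold, and Abcc9 higher by 2.14 ± 0.39 (adjusted p = 0.00121). Abcc9 was at a low level (0.375 ± 0.0416 CPM at 6m, 1.66 ± 0.825 CPM at 24m). It is also 1 of the 3 pericyte and smooth muscle markers called higher.

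Kcnj13, the Kir7.1 channel of choroid plexus epithelium, was at 10.5, 6.28, 6.87 and 9.43 CPM at 6m and 8.18, 9.04, 4.90 and 5.02 CPM at 24m and was not called (-0.28 ± 0.24, adjusted p = 0.334). The summed level of 8 choroid plexus markers was 1784 to 3208 CPM at 6m and 832 to 2267 CPM at 24m, a sum made up almost wholly of Ttr (transthyretin), which was not called. Kl, Clic6 and Aqp1 were called higher and 0 of the 8 lower (37.5% and 0%, against 25.3% and 18.3% of all tested genes). The part of these markers in the Kcnj13 value was not tested.

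**Figure D4:**
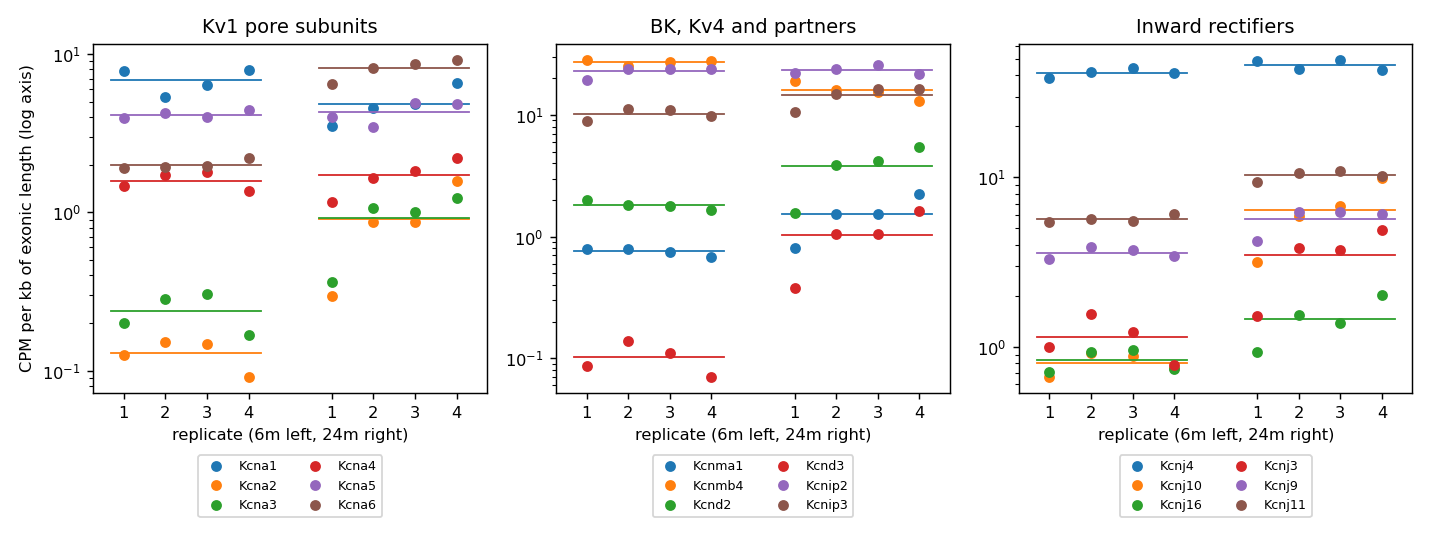
Level (CPM per kb of exonic length, log axis) of Kv1 subunits, of BK and Kv4 subunits with their partners, and of inward rectifiers in each library; points are libraries, replicates 1 to 4 of 6m on the left and of 24m on the right of each panel, and lines are the means of 4. Kcna6 passes Kcna1, Kcnj10 leaves the level of Kcnj16, and Kcnma1 and Kcnmb4 approach each other.

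Leak channels of the K2P family (Kcnk genes) had 12 tested genes, of which 4 rose (33.3%, against 25.3% of all tested genes), 1 fell (8.33%, against 18.3%) and 7 were not called, with a median log2 fold change of 0.01. Kcnk9 (ENSMUSG00000036760, chr15:72372938-72419556, - strand), the acid-sensitive TASK3 channel, was at 1.02, 1.81, 1.08 and 1.23 CPM at 6m and 5.96, 10.8, 11.5 and 18.6 CPM at 24m. The ages were far apart, and the aged libraries again ran from 24m replicate 1 as the lowest to 24m replicate 4 as the highest. This was a log2 fold change of 3.19 ± 0.34 (adjusted p = 9e-05), and 3.43 without 24m replicate 1. Its close relative Kcnk3, the TASK1 channel, rose from 18.9 ± 1.66 to 35.8 ± 0.984 CPM (0.92 ± 0.09, adjusted p = 5.28e-05). Without the length trend its log2 fold change was 0.57 (adjusted p = 0.0014), just short of the fold, and the call was lost. Kcnk5 and Kcnk10 were the other 2 rises, by 0.65 ± 0.20 (adjusted p = 0.0158) and 0.63 ± 0.15 (adjusted p = 0.00492), and both calls sat near the fold threshold. That of Kcnk5 was lost under 4 alternatives, among them the omission of 24m replicate 1 (0.56), and that of Kcnk10 under 6, among them removal of the length trend (0.30 (adjusted p = 0.0533)).

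Kcnk2 (ENSMUSG00000037624, chr1:188940126-189134470, - strand), the mechanosensitive and lipid-sensitive TREK1 channel, fell. It was at 45.0, 46.8, 46.6 and 50.5 CPM at 6m and 28.9, 28.1, 29.2 and 30.9 CPM at 24m, with narrow ranges at both ages and a clear gap between them. The log2 fold change was -0.69 ± 0.08 (adjusted p = 0.000105); scaled by library totals alone it was -0.47 (adjusted p = 0.00104). Its relative Kcnk4, the TRAAK channel of axon nodes, was also lower in every aged library but short of the fold (-0.28 ± 0.10, adjusted p = 0.0256). Kcnk1, the TWIK1 channel, had the highest level per kb of all members at 6m (45.8 ± 2.61 CPM per kb), whereas at 24m (42.7 ± 0.709) it was just below Kcnj4 and Kcnab2. It was at 115, 109, 116 and 125 CPM at 6m and 109, 109.6, 106 and 108 CPM at 24m, with overlap (-0.10 ± 0.07, adjusted p = 0.24). Kcnk1 made up 66.3 to 67.6% of the summed Kcnk level per kb at 6m and 66.7 to 68.1% at 24m. Kcnk13, the THIK1 channel of microglia, was not called (-0.16 ± 0.10). Of 8 microglia markers, 2 were called higher and 0 lower (25.0% and 0%, against 25.3% and 18.3% of all tested genes). Kcnk15 had the lowest log2 fold change of all members (-1.24 ± 0.55) but a wide spread, from 0.594, 1.16, 1.72 and 0.923 CPM at 6m to 0.164, 0.237, 0.372 and 1.09 CPM at 24m, and was not called (adjusted p = 0.0745). Without 24m replicate 4 it was called lower (-2.10, adjusted p = 0.00246), as it was under 4 other alternatives. Kcnk6 (0.33), Kcnk7 (-0.76) and Kcnk12 (0.12) were not called; Kcnk7 was called lower without 24m replicate 1 (-1.05), without 6m replicate 2 (-0.98), under quantile normalization (-0.85) and under the replicate block (-0.76).

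The large-conductance calcium- and voltage-activated BK channel joins the pore subunit of Kcnma1 with beta subunits, of which Kcnmb4 is the neuronal one and slows channel opening. The pore and this beta subunit changed in opposite directions. Kcnma1 was at 13.4, 13.5, 12.8 and 11.6 CPM at 6m and 13.8, 25.9, 25.9 and 38.0 CPM at 24m, 24m replicate 1 lying just above the young range (1.01 ± 0.25, adjusted p = 0.00567); without the length trend the difference was 0.38 (adjusted p = 0.0334), short of the fold. Kcnmb4 (ENSMUSG00000054934, chr10:116253766-116309848, - strand) was at 169, 150.1, 162 and 167 CPM at 6m and 114, 95.8, 92.7 and 77.3 CPM at 24m, every aged library being lower. This made a log2 fold change of -0.77 ± 0.11 (adjusted p = 0.000418), or -0.56 (adjusted p = 0.000583) under library totals alone. Per kb, Kcnmb4 was at 27.1 ± 1.44 CPM per kb and Kcnma1 at 0.756 ± 0.0515 at 6m, and at 15.9 ± 2.51 and 1.52 ± 0.581 at 24m. Kcnmb1 (-0.31) and Kcnmb2 (0.03) were not called, both at low levels.

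The small-conductance calcium-activated channels (Kcnn genes) showed 1 rise and 0 falls among 4 tested genes (25.0% and 0%, against 25.3% and 18.3% of all tested genes). The rise was that of Kcnn3, by 0.82 ± 0.22 (adjusted p = 0.00841), a call lost under quantile normalization and under removal of the length trend. Kcnn1, the highest per kb, was at 22.1, 22.4, 23.0 and 27.1 CPM at 6m and 20.0, 21.4, 21.3 and 19.4 CPM at 24m, lower in every aged library but not called (-0.20 ± 0.09, adjusted p = 0.081). Kcnn2 (0.09) and Kcnn4 (-0.55), the latter the intermediate-conductance channel of blood and immune cells, were not called. In Kcnn4 this rested on 24m replicate 1: the aged libraries were at 1.41, 0.612, 0.348 and 0.355 CPM in replicates 1 to 4, against 1.14, 1.05, 0.796 and 1.04 CPM at 6m, and without that library the log2 fold change was -1.18 (adjusted p = 0.00147), a called fall. All 5 blood markers were called lower at 24m (18.3% of all tested genes were), with sums of 5426 to 7604 CPM at 6m and 1242 to 4156 CPM at 24m. Their part in the Kcnn4 value was not tested.

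In the Kcnt genes, the sodium-activated channels, the abundant and the rare member differed. Kcnt1 (Slack) was at 135, 122, 125 and 127 CPM at 6m and 119, 119.8, 120.3 and 110.2 CPM at 24m. Every aged library was slightly lower, yet the difference was not called (-0.12 ± 0.07, adjusted p = 0.183). Removing the length trend moved it to -0.52 (adjusted p = 0.00303), still short of the fold. Kcnt2 (Slick) rose from 1.63 ± 0.324 to 4.00 ± 1.39 CPM (1.29 ± 0.27, adjusted p = 0.00273).

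The largest fall among members of at least 1 CPM was that of Kcnu1 (ENSMUSG00000031576, chr8:26339651-26427967, + strand), the alkaline-activated SLO3 channel known from sperm. It was at 5.12, 4.79, 6.14 and 5.54 CPM at 6m and 2.95, 2.50, 2.29 and 2.53 CPM at 24m, with every aged library lower. On the log2 scale the difference was -1.07 ± 0.13 (adjusted p = 0.000172), and it was the sole fall that was called under every alternative fit. The locus overlaps a gene model on the opposite strand (Gm63688), so that reads of that model could be counted here if strand was not used. Kcnrg, a gene for a regulator of Kv channel assembly that overlaps the long non-coding gene Dleu2, fell from 0.411 ± 0.0704 to 0.224 ± 0.0682 CPM (-0.87 ± 0.26, adjusted p = 0.0153), a call lost without the length trend and under library totals.

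The signed log2 fold change correlated with transcript length, among the potassium channel genes as among all genes. Across the 86 tested members, the Spearman correlation of log2 fold change with the length of the canonical 3′ UTR was 0.55, with canonical transcript length 0.56 and with exonic GC content -0.11; over 16677 annotated genes the same values were 0.52, 0.56 and -0.21. Genes are not independent replicates, and these values describe the same 8 libraries. The median 3′ UTR was 2906 bases in members called higher, 1302.5 bases in those called lower and 1325 bases in those not called. With the trend over exonic length removed, 29 members were higher (27 of them among the 36) and 7 lower (4 among the 6), against 21.3% and 17.2% of all genes, and the member median was 0.28. Kcnd3, Kcnk9, Kcnj10, Kcna2, Kcnh1 and Kcna6 kept log2 fold changes of 2.91 (adjusted p = 8.8e-05), 2.64 (adjusted p = 2.94e-05), 2.95 (adjusted p = 4.47e-05), 2.25 (adjusted p = 0.000303), 2.27 (adjusted p = 2.42e-05) and 1.91 (adjusted p = 9.56e-06). After that correction the log2 fold changes of members still correlated with 3′ UTR length (0.42) and canonical transcript length (0.34), as did those of all genes (0.33 and 0.27). The Spearman correlation of the uncorrected change with mean CPM per kb was 0.03 in members and -0.22 over all genes. The part of transcript length in these results was not tested beyond this correction.

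**Figure D5:**
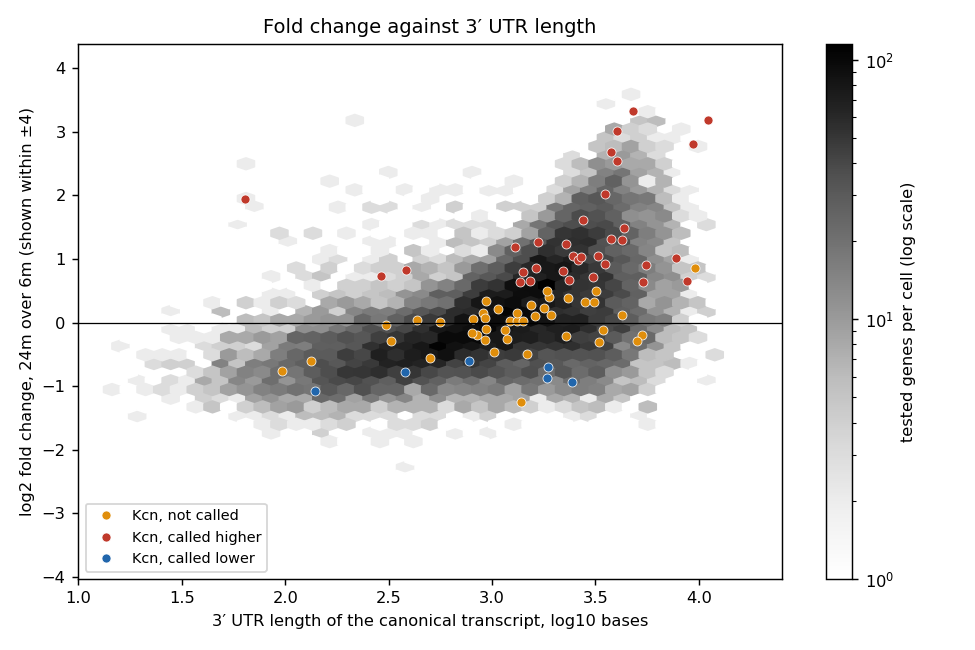
Log2 fold change (24m over 6m) against the 3′ UTR length of the canonical transcript (log10 bases) for all tested genes with a UTR of at least 10 bases (grey cells, darker for more genes) and for the Kcn genes reported here (coloured points by call). Kcn genes follow the cloud of all genes: most red points lie to the right of 3 on the x axis, at UTRs over 1000 bases.

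Of the 36 rises, 22 were called under every alternative fit in which the gene was tested, among them Kcna2, Kcna3, Kcna6, Kcnab1, Kcnab2, Kcnd3, Kcnf1, Kcng1, Kcng4, Kcnh1, Kcnj2, Kcnj3, Kcnj5, Kcnj6, Kcnj10, Kcnj11, Kcnk9, Kcnq5, Kcns2 and Kcnt2. These include Kv1 and Kv4 pores, silent subunits, astrocytic, G protein-gated and ATP-sensitive rectifiers and 1 K2P channel.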

How the data were processed

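Polyadenylated RNA of 8 male mouse brains, 4 of 6m and 4 of 24m, was made into directional libraries and sequenced. Per the labels and methods, the authors trimmed reads with Trim Galore 0.4.11, aligned them to GRCm39 with HISAT2 2.1.0 and assigned them to genes with featureCounts. The deposited values were whole-number counts per gene and library, with no normalization. The use of strand and of multimapping reads is not given in the sources used here, so values of overlapping genes carry that uncertainty.

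Of 22430 genes, 22281 matched GENCODE M39 (GRCm39), from which symbols, positions, lengths and coding sequences were taken; the other 149 held 0.312% of counts. No column of per-sample values was left unused. Testing covered the 16730 genes that exceeded 5 counts in 4 or more libraries, with edgeR 4.0.16 (R 4.3.3, TMM factors, quasi-likelihood, age as the only term), and p-values were adjusted over all of them by Benjamini-Hochberg. The thresholds, an adjusted p of 0.05 and a log2 fold change of 0.58, were those of the study. The study itself normalized by quantiles and then by row-wise medians and used DESeq2; of this, DESeq2 on quantile-normalized counts was run as an alternative, without the row-wise step. Each standard error was derived from the fold change and the F statistic. Tested on counts simulated for this comparison (16624 genes, 200 changed), the fit recovered 83% of the changed genes and made 8 false calls.

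Genes given with full values were, among called members with a mean of at least 1 CPM, up to 10 of the largest rises and up to 10 of the largest falls (4 called falls reached 1 CPM), the 5 members named by the study, and the member of each subfamily with the highest level per kb, 33 in all, 30 of them given here; a few other genes that enter the counts are likewise not reported here. The others are given with their call and fold change, and some with levels picked after their values were seen. The members and lists were chosen with earlier results of these data known. Alternatives were other scalings, tests (DESeq2 1.42.0, limma-voom 3.58.1) and filters, omission of single libraries, a replicate block, counts thinned to the smallest total, and smoothed offsets for gene length or GC content. Chi-square values per degree of freedom between libraries of one age were at least 8.18, so each library was counted as a replicate.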

Additional observations from a re-analysis of the deposited data

Results flagged for a closer look

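A value of a single library lay far from the other 3 of its age in 4 cases. The gap to the nearest library, divided by the range of the 4, exceeded the critical value of Dixon's test for 4 of 60 groups examined over 30 named genes, and chance alone flags about 1 in 20 groups. In the young group these were Kcna6 at 13.2 CPM in 6m replicate 4 (11.4 to 11.6 CPM in the others) and Kcnip2 at 76.9 CPM in 6m replicate 1 (95.2 to 96.4 CPM). In the aged group they were Kcnv1 at 14.9 CPM in 24m replicate 1 (23.4 to 24.4 CPM) and Kcnt1 at 110.2 CPM in 24m replicate 4 (119 to 120.3 CPM). None of these values reached the range of the other age for Kcna6 or Kcnt1. Kcnv1, not called over all 8 libraries (0.49), was called higher without 24m replicate 1 (0.66).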

How the results depend on the processing

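Members called higher numbered 27 to 40 and members called lower 1 to 8 over the alternative fits, at the thresholds of the report. Over the same fits, 21.0% to 32.6% of all tested genes were called higher and 10.4% to 23.3% lower. Leaving out each library in turn gave 29 to 39 higher and 4 to 7 lower, member medians of 0.25 to 0.40, Kcnc medians of 0.56 to 0.85 and Kcnj medians of 0.64 to 0.92. A fold threshold of 1 (log2) left 21 higher and 1 lower. Under library totals alone 1 member was lower (40 higher), the member median was 0.56, and the medians were 1.27 for Kcnab, 0.91 for Kcnc, -0.0110 for Kcne, 0.93 for Kcng, 0.49 for Kcnip, 1.05 for Kcnj, 0.23 for Kcnk, 0.080 for Kcnm, 0.16 for Kcnn, 0.86 for Kcnq and 0.55 for Kcns; Kcne5 (0.021), Kcnh3 (0.18), Kcnk1 (0.12), Kcnn1 (0.017) and Kcnt1 (0.10) changed sign, none of them called. That scaling shifts all genes up relative to TMM scaling, whose factors were 0.887 to 0.957 at 6m and 1.00 to 1.13 at 24m. Which of these scalings is nearer to the true levels was not tested. With quantile normalization and DESeq2, 28 were higher and 8 lower, and the medians were -0.20 for Kcna, -0.53 for Kcne, -0.27 for Kcnm, -0.16 for Kcnn, 0.36 for Kcnq and 0.21 for Kcns, with Kcnh3 at 0.10. With the GC trend removed, 32 were higher and 7 lower, with medians of 0.12 for Kcnk, -0.37 for Kcnm and 0.56 for Kcns, and Kcnh3 at 0.14 and Kcnt1 at 0.014. At a minimum of 1 CPM in 4 libraries, 70 members were tested, with a median of 0.49 over members, 1.02 for Kcng, 0.11 for Kcnk, 0.11 for Kcnm and 0.08 for Kcnn, fewer genes being tested. With the length trend removed the medians were 0.69 for Kcnab, 0.31 for Kcnc, 0.33 for Kcne, 0.64 for Kcnj, -0.32 for Kcnn, 0.084 for Kcnq and 0.57 for Kcns, with Kcne5 at 0.40 and Kcnk1 at 0.27. With each library left out, Kcnip2 ran from -0.0423 to 0.075 (-0.0173 without 24m replicate 3, -0.0423 without 6m replicate 1) and Kcnh3 from -0.088 to 0.0035 (without 6m replicate 3), neither called. Apart from library totals and the smaller gene set, the cause of these shifts was not tested.

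The replicate numbers of the ages name different animals. Deviations of same-numbered libraries correlated at 0.27, 0.14, 0.078 and -0.35, so the numbers were not taken as pairs. With the replicate number as a block, 36 members were higher and 7 lower. With the block and the length trend removed, 27 were higher and 7 lower, the medians were 0.68 for Kcnab, 0.30 for Kcnc, 0.31 for Kcne, 0.61 for Kcnj, -0.31 for Kcnn, 0.074 for Kcnq and 0.57 for Kcns, and Kcne5 was at 0.41 and Kcnk1 at 0.26.

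The depth limits members of few counts: 71 of the 86 tested members had a mean of at least 1 CPM over the 8 libraries. Among those below it were Kcne3, Kcnrg, Kcnk7, Kcng3, Kcnq1, Kcnk15 and Kcnn4. So were Kcnj2 (0.996 CPM), Kcnk5 (0.720 CPM) and Kcnj5 (0.591 CPM), which were called higher. A further 8 members could not be tested. Differences in members that were not called are not shown to be absent. Levels per kb rest on annotated exonic lengths.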

Other observations

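Genes that work with potassium channels without being Kcn genes were read from the same fit. Of 20 tested partner genes, 9 were called higher at 24m and 1 lower (median log2 fold change 0.41), against 25.3% and 18.3% of all tested genes. Of the membrane-associated scaffolds that bind Kv1 channels, Dlg2 (PSD-93) rose by 2.57 ± 0.29 (edgeR adjusted p = 0.000117) and Dlg1 (SAP97) by 1.04 ± 0.21 (adjusted p = 0.00207), whereas Dlg4 (PSD-95) was at 966 ± 55.4 CPM at 6m and 1039 ± 81.9 CPM at 24m and was not called. The juxtaparanodal adhesion protein Cntnap2 (Caspr2) rose by 0.94 ± 0.18 (adjusted p = 0.00163). Adam22 and Adam23, receptors of the secreted protein Lgi1, rose by 0.91 ± 0.21 (adjusted p = 0.00387) and 0.80 ± 0.11 (adjusted p = 0.000279). Lgi1 itself fell from 117 ± 11.9 to 53.9 ± 2.33 CPM (-1.11 ± 0.09, adjusted p = 2.77e-05), so that the ligand and its receptors changed in opposite directions. The anchoring protein Akap5 of Kv7 channels rose by 1.66 ± 0.37 (adjusted p = 0.00331). The 3 calmodulin genes were not called.

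Among other routes of potassium movement, the HCN pacemaker channel gene Hcn4 rose by 1.83 ± 0.21 (adjusted p = 0.000126), while Hcn2 was at 533 ± 87.8 and 482 ± 36.4 CPM and was not called. Potassium chloride cotransporter genes that rose included Slc12a2 (NKCC1, which loads chloride) by 2.08 ± 0.35 (adjusted p = 0.000767), Slc12a7 (KCC4) by 0.89 ± 0.13 (adjusted p = 0.000391) and Slc12a5 (KCC2, which extrudes chloride in neurons) by 0.60 ± 0.13 (adjusted p = 0.00306). None of 3 genes for intracellular potassium channels (Tmem175, Tmem38a and Tmem38b) was called, and 0 of the 3 had an adjusted p under the threshold. The neuron markers summed to 4643 to 5095 CPM at 6m and 5233 to 5651 CPM at 24m (2 of 8 higher and 1 lower), oligodendrocyte markers to 3419 to 4300 and 3733 to 4317 CPM (2 of 8 higher), oligodendrocyte precursor markers to 237 to 299 and 314 to 332 CPM (3 of 6 higher), microglia markers to 456 to 487 and 453 to 631 CPM, cerebellar markers to 578 to 859 and 527 to 805 CPM (5 of 8 higher), and endothelial markers to 60.2 to 78.5 and 46.0 to 68.5 CPM (2 of 8 higher and 1 lower). Of all tested genes, 25.3% were called higher and 18.3% lower, and most of the cerebellar sum was that of Pcp2 and Calb2, neither of them called. No marker of these lists was at 0 in any library.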
